A study of Mus musculus with 12 samples.

Results

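The genes described here are 8 members of the cholesterol synthesis pathway and its transcriptional control: the enzymes Hmgcs1, Idi1, Fdft1, Sqle, Lss and Cyp51, the sterol sensor Insig1, and Srebf2, which encodes the transcription factor SREBP2. They were taken by gene symbol from the deposited table of CPM (the reads of a gene per 1000000 reads of its library), one row per Ensembl gene ID, and are 8 of the 40481 genes in it. All 8 passed the filter on low values (at least 1 CPM in at least 3 of 12 libraries) and were among the 14271 genes tested.

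Cholesterol is built from acetyl-CoA through mevalonate, isoprenoids and squalene to lanosterol, which is then trimmed to cholesterol. When sterols are scarce, SCAP carries SREBP2 from the endoplasmic reticulum to the Golgi, where it is cleaved, and the released fragment enters the nucleus and switches on most enzymes of the pathway and its own gene. When sterols are plentiful, INSIG proteins hold SCAP and SREBP2 in the endoplasmic reticulum, and interferon signalling is known from other cells to lower the pathway.

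RNA was sequenced from mouse hematopoietic stem cells (HSCs), the cells that renew the blood, in 4 groups of 3 libraries. WT cells came from bone marrow of mice 8 weeks old or from fetal liver at E14.5. The other groups, of the same sources and ages, carried iE/R, an inducible form of ETV6-RUNX1, a fusion of transcription factor genes found in childhood B-cell leukemia. After sorting, the cells of all groups, WT included, spent 3 days in a culture that expands HSCs, with 1 µg/mL doxycycline, so each comparison is between doxycycline-treated cells. The promoter that drives the fusion, the number and sex of the animals behind a library, and whether replicates came from separate cultures are not given in the sources used here, so the p-values measure only the spread between these libraries.

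Library totals ran from 32.3 to 64.5 M reads, and a count of 3 reads equalled 0.0465 to 0.0928 CPM. Runx1, a partner of the fusion, was higher in ETV6-RUNX1 libraries by 0.90 ± 0.14 (log2, SE) in fetal liver (limma adjusted p = 0.000154) and by 0.81 ± 0.14 in bone marrow (adjusted p = 0.00178), without overlap of the groups. All 9 HSC markers checked (among them Kit, Procr and Mecom) averaged at least 1 CPM in every group, and the hepatocyte list summed to at most 37.9 CPM in any library. Median log2 change over all genes tested was 0.13 in bone marrow and 0.08 in fetal liver, and scaling by TMM brought these to 0.003 and -0.005. Calls in bone marrow were 2059 higher and 704 lower as deposited, 1435 and 1413 with TMM, 1479 and 1313 with median-of-ratios scaling, and 1248 and 1324 with quantile normalization. In fetal liver they were 3544 higher and 2607 lower, and 2717 and 3746 with quantile normalization.

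Promoter windows of RefSeq (GRCm38.p6, 250 bases before to 50 after a start) were found for 6 of the 8 genes, Sqle and Fdft1 being the ones not matched. A sterol response element with the letters TCACNCCA, the sequence bound by SREBP2, stood in 2 of these 6, Hmgcs1 and Srebf2, against 4.36% of all 32851 windows. The NF-Y box CCAAT and the Sp1 box GGGCGG, bound by factors known to act beside SREBP2, were each found in 6 of 6, against 37.4% and 35.7% of all windows. Among 11 other enzymes of sterol synthesis with a window, the sterol response element stood in 1 and each of the other 2 boxes in 10. Both strands were searched, and the sterol response element and the NF-Y box occurred together in 1.67% of all windows. Such a match describes letters and is not a bound site.

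Windows of the pair with the sterol response element and of the genes with the largest fall (Lss) and the sensor (Insig1) are shown, plus strand and 5′ to 3′, with the sterol response element and the NF-Y box nearest it, or nearest the start, in capitals. The NF-Y box reads ATTGG on this strand. They lie at chr13:119690158-119690277 (Hmgcs1), chr15:82147051-82147170 (Srebf2), chr10:76531468-76531587 (Lss) and chr5:28071162-28071281 (Insig1).
Hmgcs1: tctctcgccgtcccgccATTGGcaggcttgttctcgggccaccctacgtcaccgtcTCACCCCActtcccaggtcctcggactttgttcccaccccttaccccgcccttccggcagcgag
Srebf2: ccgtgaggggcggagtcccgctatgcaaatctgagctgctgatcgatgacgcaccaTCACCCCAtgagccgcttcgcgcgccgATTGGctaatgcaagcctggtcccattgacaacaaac
Lss: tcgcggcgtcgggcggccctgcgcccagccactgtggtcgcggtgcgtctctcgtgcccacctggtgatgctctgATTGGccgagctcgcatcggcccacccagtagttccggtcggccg
Insig1: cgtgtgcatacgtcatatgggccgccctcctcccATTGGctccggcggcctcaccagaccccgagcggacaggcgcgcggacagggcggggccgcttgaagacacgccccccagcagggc
The element lay 137 bases before the RefSeq start in Hmgcs1 and 162 bases before it in Srebf2. Lss had its NF-Y box 62 bases before the start, and Insig1 had it 216 bases before the start.

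The first question was how ETV6-RUNX1 cells differed from WT cells of the same source. Srebf2 RNA was higher in ETV6-RUNX1 cells of both sources, while Lss and Fdft1, enzymes around squalene, were lower in both and Idi1 was lower in bone marrow. Hmgcs1, Sqle, Cyp51 and Insig1 passed the threshold in neither source. In bone marrow 1 of 8 genes was called higher and 3 of 8 lower by limma (adjusted p under 0.05), with a median log2 change of -0.38, against calls for 14.4% (higher) and 4.93% (lower) of all genes tested. In fetal liver 1 of 8 was higher and 2 of 8 lower, with a median of -0.15, against 24.8% (higher) and 18.3% (lower) of all genes tested. The share of members lower in fetal liver was thus near that of all genes. TMM and median-of-ratios scaling, like edgeR and DESeq2 on the recovered reads, called 5 of 8 lower in bone marrow, adding Hmgcs1 and Sqle. Over all 14271 genes these 2 scalings called 1413 and 1313 lower there, against 704 as deposited. Without the filter on low values, Srebf2 in both sources and Lss in bone marrow kept their calls, and with only the 6 bone marrow libraries fitted Lss kept its call there. The bulk libraries cannot tell fewer cells that express a gene from less RNA of that gene per cell.

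**Figure D1:**
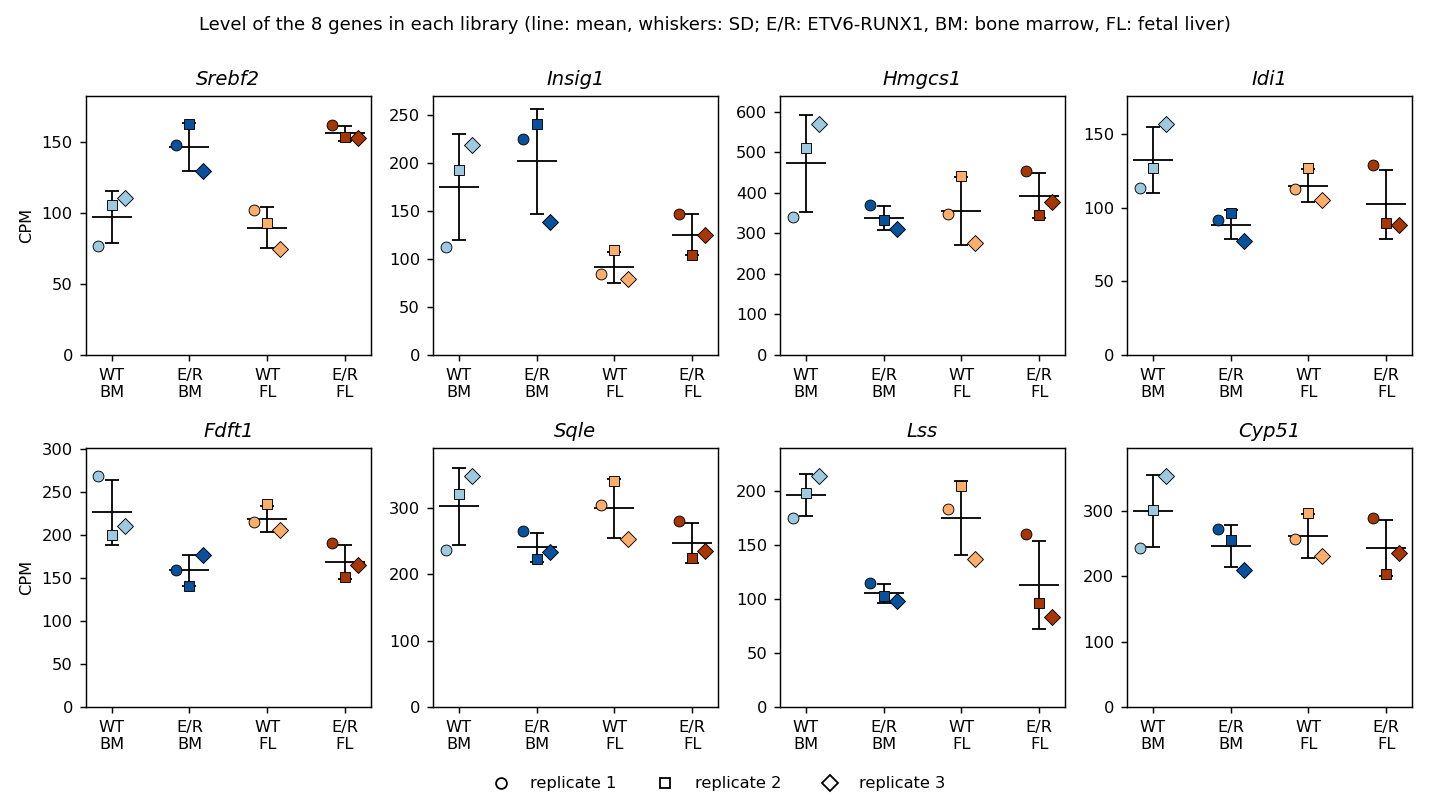
CPM of the 8 genes (vertical axis, linear, from 0) in the 3 libraries of each group, with the mean as a line and the SD as whiskers. The Srebf2 points of ETV6-RUNX1 cells (129 to 163 CPM) lie above all WT points (74.3 to 110.1 CPM), and Lss in bone marrow shows the opposite arrangement.

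Srebf2 (ENSMUSG00000022463, GRCm38 chromosome 15, 82147181 to 82205379, plus strand) had 76.4, 105 and 110.1 CPM in WT bone marrow replicates 1, 2 and 3, and 148, 163 and 129 CPM in ETV6-RUNX1 bone marrow. In fetal liver it had 102, 92.5 and 74.3 CPM in WT and 162, 153 and 153 CPM in ETV6-RUNX1. Every ETV6-RUNX1 library therefore exceeded every WT library, of either source. Group means were 97.3 ± 18.2 and 147 ± 16.9 CPM (SD, n = 3) in bone marrow and 89.7 ± 14.1 and 156 ± 5.24 CPM in fetal liver. On the log2(CPM + 1) scale the rise was 0.80 ± 0.16 (SE) in fetal liver (limma adjusted p = 0.00116) and 0.60 ± 0.16 in bone marrow (adjusted p = 0.0193). The fetal liver call held in 23 of 23 alternatives. In bone marrow it was lost without WT replicate 1 (0.43, adjusted p = 0.0617), without ETV6-RUNX1 replicate 1 (0.59, adjusted p = 0.0554) or without ETV6-RUNX1 replicate 2 (0.52, adjusted p = 0.0817), and with only the 6 bone marrow libraries fitted (adjusted p = 0.0592).

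Insig1 (ENSMUSG00000045294, chromosome 5, 28071363 to 28078662, plus strand) encodes a sensor that keeps SREBP2 in the endoplasmic reticulum and is itself an SREBP2 target. It had 113, 192 and 219 CPM in WT and 225, 241 and 139 CPM in ETV6-RUNX1 bone marrow. WT fetal liver had 84.3, 109 and 79.5 CPM and ETV6-RUNX1 fetal liver had 146, 104 and 125 CPM. The genotypes overlapped in both sources, and neither the difference of 0.22 ± 0.25 in bone marrow (limma adjusted p = 0.565) nor that of 0.46 ± 0.25 in fetal liver (adjusted p = 0.155) passed the threshold. Fitting only the 6 fetal liver libraries called the latter (adjusted p = 0.038). Replicate 1 of WT bone marrow was the lowest of its group, and without it the bone marrow difference became -0.06.

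Hmgcs1 (ENSMUSG00000093930, chromosome 13, 119690379 to 119708260, plus strand) makes HMG-CoA, an early intermediate on the way to mevalonate. Its levels were 339, 509 and 571 CPM in WT bone marrow and 371, 333 and 311 CPM in ETV6-RUNX1 bone marrow. Replicate 1 of WT lay inside the ETV6-RUNX1 range, and the other WT libraries lay above it. The mean was 28.5% lower in ETV6-RUNX1 cells, a log2 change of -0.45 ± 0.20 that missed the threshold (limma adjusted p = 0.126). It passed without WT replicate 1 (-0.68, adjusted p = 0.0244) and with TMM scaling (-0.60, adjusted p = 0.0314). In fetal liver WT had 347, 442 and 275 CPM, and ETV6-RUNX1 had 454, 346 and 378 CPM. The groups overlapped there, with a log2 change of 0.17 ± 0.20 (adjusted p = 0.533).

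Idi1 (ENSMUSG00000058258, chromosome 13, 8885501 to 8892451, plus strand) interconverts the C5 isoprenoid building blocks. It fell in bone marrow, from 113, 127 and 157 CPM in WT to 91.8, 96.2 and 77.7 CPM in ETV6-RUNX1, with no overlap. The fall was 0.57 ± 0.17 on the log2 scale, or 33.2% of the mean (limma adjusted p = 0.0311). This call was among the less stable ones, holding in 14 of 23 alternatives. It was lost without WT replicate 2 (adjusted p = 0.0612) or 3 (-0.44, adjusted p = 0.112) and without ETV6-RUNX1 replicate 1 (0.0631), 2 (0.0541) or 3 (-0.48, 0.0872). In fetal liver WT had 113, 127 and 105 CPM, and ETV6-RUNX1 had 129, 89.9 and 87.9 CPM. Replicate 1 of ETV6-RUNX1 was the highest of the 6, and the log2 change of -0.19 ± 0.17 did not pass (adjusted p = 0.402).

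Fdft1 (ENSMUSG00000021273, chromosome 14, 63145150 to 63179578, minus strand) is squalene synthase, the first step committed to sterols. WT bone marrow had 269, 200.1 and 210.4 CPM, and ETV6-RUNX1 bone marrow had 160, 141 and 177 CPM. WT fetal liver had 216, 236 and 206 CPM, and ETV6-RUNX1 fetal liver had 191, 152 and 165 CPM. No ETV6-RUNX1 library reached the WT range of its source. The fall was 0.50 ± 0.14 in bone marrow (log2, limma adjusted p = 0.0268) and 0.38 ± 0.14 in fetal liver (adjusted p = 0.0464), close to the threshold. In fetal liver the call was lost without WT fetal liver replicate 1 (adjusted p = 0.0808), 2 (0.147) or 3 (0.068), ETV6-RUNX1 fetal liver replicate 2 (0.159) or 3 (0.101), WT bone marrow replicate 3 (0.0526) or ETV6-RUNX1 bone marrow replicate 1 (0.0585). The bone marrow call was lost without WT replicate 1 (-0.37, adjusted p = 0.0853), ETV6-RUNX1 replicate 1 (0.0646) or ETV6-RUNX1 replicate 2 (-0.41, 0.109). Exons of Fdft1 share 774 bases with Ctsb on the other strand. Since the use of strand in counting is not given in the sources used here, reads there cannot be told apart. Ctsb moved the other way in fetal liver, by 0.43 ± 0.12 (adjusted p = 0.00951), and by 0.05 ± 0.12 in bone marrow (adjusted p = 0.806).

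Sqle (ENSMUSG00000022351, chromosome 15, 59315077 to 59331192, plus strand), squalene epoxidase, makes the substrate that Lss cyclizes. It had 236, 321 and 348 CPM in WT and 265, 223 and 233 CPM in ETV6-RUNX1 bone marrow, and 304, 340.4 and 252 CPM in WT and 280.4, 224 and 234 CPM in ETV6-RUNX1 fetal liver. The genotypes overlapped in both sources. Its log2 changes of -0.31 ± 0.16 in bone marrow (limma adjusted p = 0.19) and -0.27 ± 0.16 in fetal liver (adjusted p = 0.187) were not called. The bone marrow change was called with TMM scaling (-0.46, adjusted p = 0.0386) and without WT replicate 1 (-0.48, adjusted p = 0.0468).

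Lss (ENSMUSG00000033105, chromosome 10, 76531588 to 76557138, plus strand) closes the sterol rings to give lanosterol, and had the largest fall of the 8. WT bone marrow had 175, 198 and 214 CPM, and ETV6-RUNX1 bone marrow had 115, 103 and 98.4 CPM. The lowest WT library was well above the highest ETV6-RUNX1 library, and the mean was 46.2% lower. This fall of 0.89 ± 0.21 on the log2 scale (limma adjusted p = 0.0107) held in 23 of 23 alternatives. Fetal liver had 183, 204 and 137 CPM in WT and 159.8, 96.2 and 83.0 CPM in ETV6-RUNX1. Replicate 1 of ETV6-RUNX1 lay above replicate 3 of WT, so the groups overlapped although the fall of 0.66 ± 0.21 passed the test (adjusted p = 0.02). That call was lost without WT fetal liver replicate 1 (-0.62, adjusted p = 0.0577) or 2 (-0.54, 0.0873), and without ETV6-RUNX1 fetal liver replicate 2 (-0.58, 0.075) or 3 (-0.47, 0.0964).

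Cyp51 (ENSMUSG00000001467, chromosome 5, 4081145 to 4104746, minus strand) removes a methyl group from lanosterol. Levels were 243, 300.1 and 353 CPM in WT and 272, 255 and 209.8 CPM in ETV6-RUNX1 bone marrow. Fetal liver had 257, 296 and 230.2 CPM in WT and 288, 204 and 235 CPM in ETV6-RUNX1. The genotypes overlapped in both sources, and the log2 changes of -0.27 ± 0.17 (limma adjusted p = 0.273) and -0.11 ± 0.17 (adjusted p = 0.617) were not called.

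The second question was whether the effect of ETV6-RUNX1 differed between the sources. None of the 8 genes passed limma's test of that difference, in which 5.56% of all genes were called higher and 3.62% lower. At an unadjusted p under 0.05 there was 1 gene, Hmgcs1, and edgeR and DESeq2 called 0 and 0 members. Over all genes 794 were called higher and 517 lower, and 967 and 367 with TMM. All 8 differences were above 0 (fetal liver minus bone marrow), from 0.04 ± 0.23 for Sqle to 0.62 ± 0.28 for Hmgcs1 (adjusted p = 0.18). Over all genes tested, 6536 of 14271 differences were above 0 (median -0.05). Of 13 other enzymes of sterol synthesis, 2 had a difference above 0 and 11 below it (median -0.17). For Hmgcs1 the change was 0.17 in fetal liver and -0.45 in bone marrow. Without WT bone marrow replicate 1 the Hmgcs1 difference was 0.84 and was called (adjusted p = 0.0306).

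**Figure D2:**
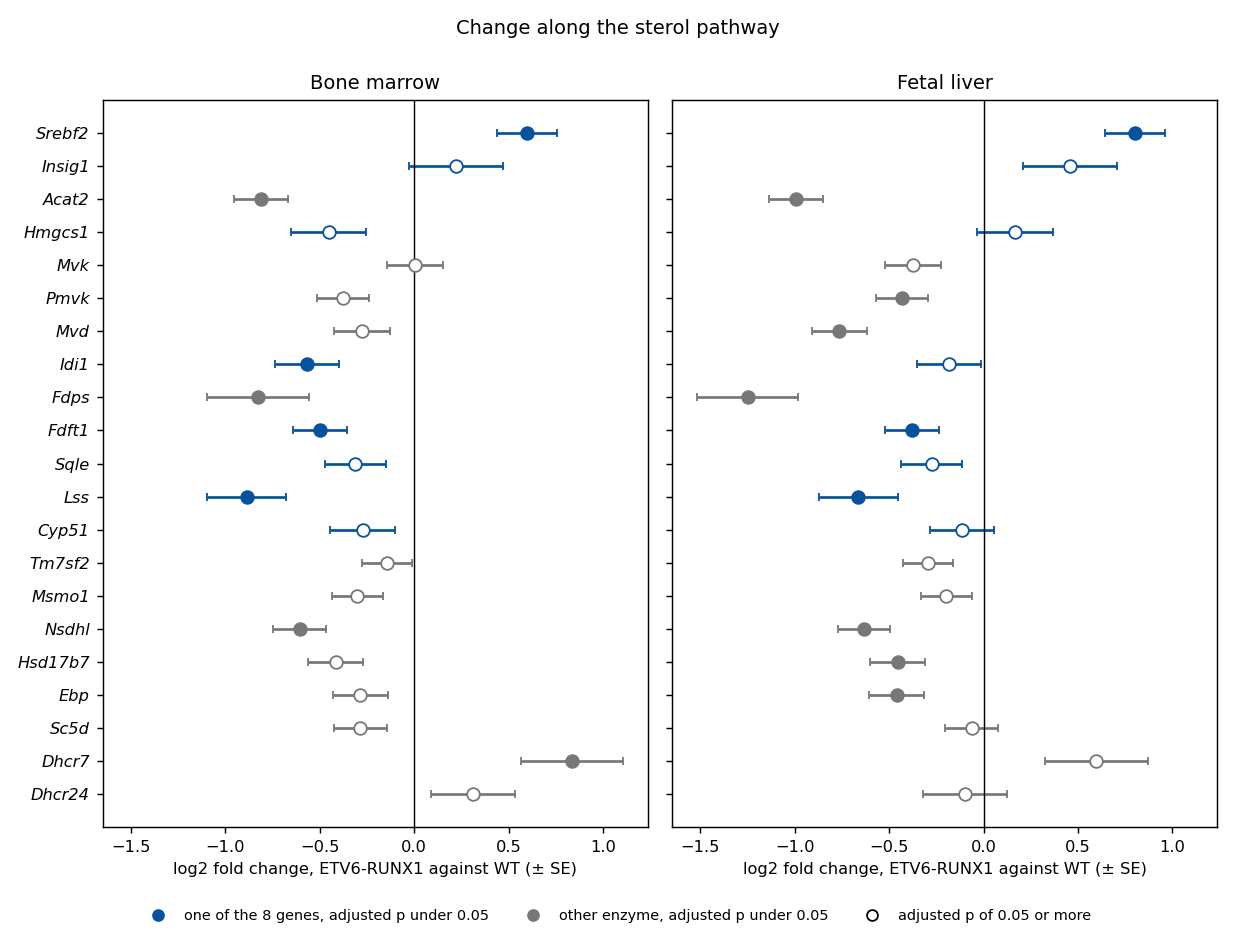
Log2 change of ETV6-RUNX1 against WT with its SE (horizontal bars) for the 8 genes and 13 other enzymes of sterol synthesis, in bone marrow and in fetal liver, filled where the limma adjusted p is under 0.05. Most enzymes lie left of 0, with Fdps and Acat2 far to the left in fetal liver (-1.25 and -0.99), while Srebf2 lies to the right in both panels.

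Sources were also compared within a genotype. In WT cells, 1 of 8 genes was called, where 3.38% of all genes were higher and 7.77% lower in fetal liver (482 and 1109 genes, and 667 and 933 with TMM). That gene was Insig1, which was lower in fetal liver by 0.89 ± 0.25 on the log2 scale (limma adjusted p = 0.0324) with no overlap of the WT libraries. The call was lost without WT bone marrow replicate 2 (adjusted p = 0.14) or 3 (-0.70, 0.14) and without WT fetal liver replicate 1 (0.0978) or 3 (0.129). Hmgcs1 was called as well without WT bone marrow replicate 1 (-0.63, adjusted p = 0.0259; -0.41 and 0.223 with it). In ETV6-RUNX1 cells, limma called 0 of 8, where 10.4% of all genes were higher and 18.2% lower in fetal liver (1484 and 2604 genes, and 2011 and 1520 with TMM). At an unadjusted p under 0.05 there was 1, Insig1 (-0.65 ± 0.25, adjusted p = 0.0631), and edgeR and DESeq2 called 0 and 0.

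Levels per kilobase of exon placed Hmgcs1 first in all 4 groups, with group means of 73.6 to 103 CPM per kb. In WT bone marrow Cyp51 (67.7), Insig1 (56.4), Sqle (54.4) and Fdft1 (53.6 CPM per kb) followed, and the replicate ranges of neighbours among these 5 genes overlapped. Idi1 had 37.8, Lss 18.2 and Srebf2 13.5 CPM per kb. Lss and Srebf2 held the last places in every group, and Lss was above Srebf2 in both WT groups (18.2 against 13.5 and 16.2 against 12.5) and below it in both ETV6-RUNX1 groups (9.77 against 20.4 and 10.5 against 21.7). Insig1 changed place most, coming directly after Hmgcs1 in ETV6-RUNX1 bone marrow (65.1) and below Idi1 in WT fetal liver (29.4 against 32.8). The annotated exons of Lss add up to 10.8 kb, the longest of the 8, which lowers its value on this scale.

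Enzyme levels were not uniform among the libraries of a group. As the mean deviation of the 6 enzymes from their mean over 12 libraries (log2), WT bone marrow had 0.07, 0.28 and 0.45 and ETV6-RUNX1 bone marrow had -0.12, -0.25 and -0.31. WT fetal liver had 0.11, 0.31 and -0.11, and ETV6-RUNX1 fetal liver had 0.15, -0.31 and -0.26. Replicate 1 of ETV6-RUNX1 fetal liver thus lay among the WT libraries in its enzymes, while its Srebf2 deviation of 0.45 was in the range of the other ETV6-RUNX1 libraries (0.13 to 0.46).

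**Figure D3:**
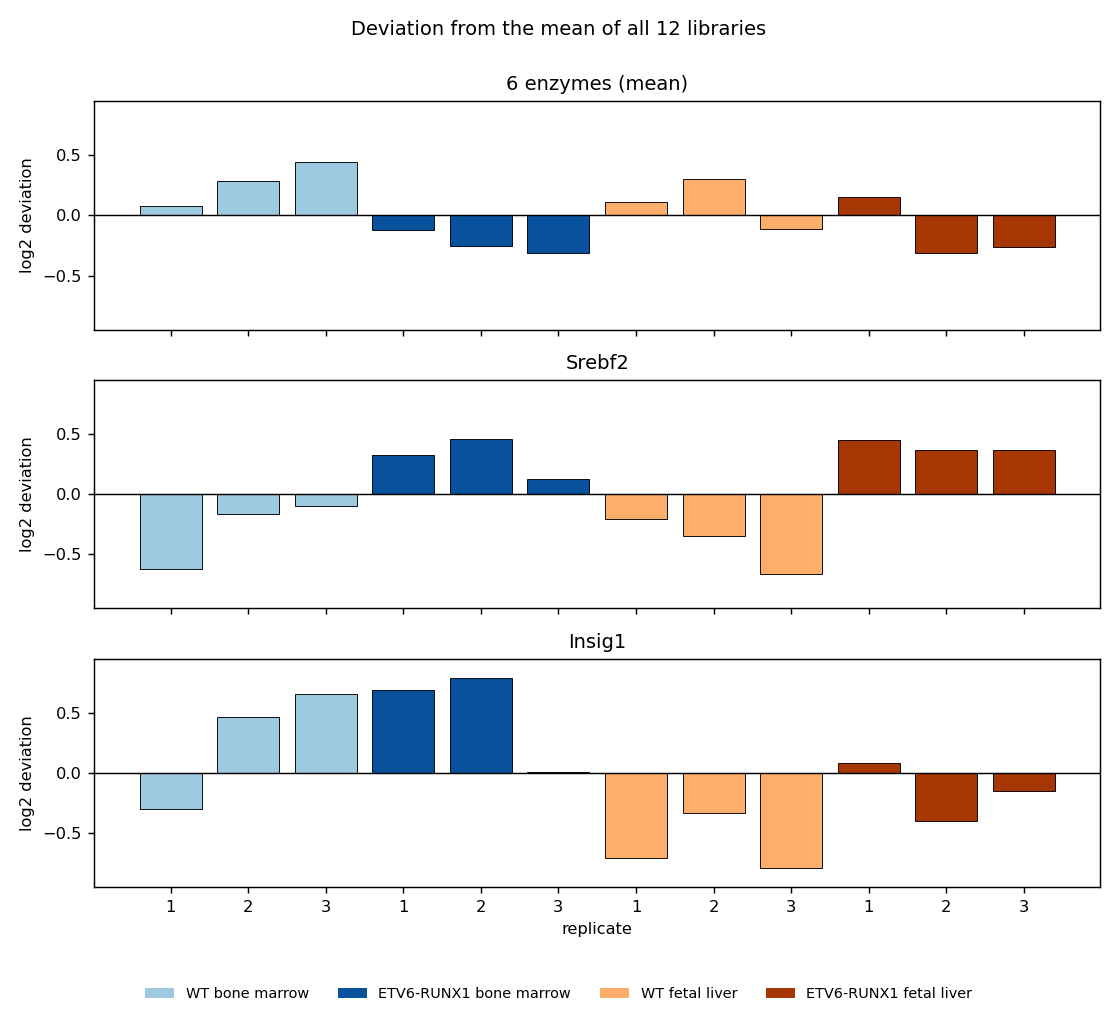
Deviation of each library from the mean of the 12 (log2 units) for the mean of the 6 enzymes, for Insig1 and for Srebf2. Srebf2 is above 0 in all 6 ETV6-RUNX1 libraries and below 0 in all 6 WT libraries, and the enzyme mean of ETV6-RUNX1 fetal liver replicate 1 (0.15) stands apart from replicates 2 and 3 (-0.31 and -0.26).

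Pearson correlations over the 12 libraries, which share group differences and depth and are given as a description, ran from 0.21 to 0.91 over the 15 enzyme pairs (median 0.77). Srebf2 had a median r of -0.34 with the other 7. After the group means were taken out, that median was 0.73, and that of the 15 enzyme pairs was 0.76. Within groups Srebf2 correlated positively with 5 of the 6 enzymes, from 0.52 for Lss to 0.79 for Hmgcs1. Fdft1 stood aside within groups, at -0.13 with Hmgcs1 and -0.51 with Srebf2. Among 9559 protein-coding genes outside the lists with a mean of at least 5 CPM, those most like the mean of the 8 over the 12 libraries were Spata5 (r = 0.92), Aacs (0.90), Gk (0.89), Cyb5b (0.88), Cep76 (0.88) and Bzw1 (0.87).

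A list of 13 other enzymes of sterol synthesis was examined in the same fit. That fit called 18.3% of all genes lower in fetal liver, and 4.93% lower and 14.4% higher in bone marrow. In fetal liver 7 of 13 were lower by limma (median -0.43), and edgeR and DESeq2 each called 9 lower. In bone marrow 3 of 13 were lower and 1 higher (median -0.29). With TMM scaling 7 were lower and 0 higher, and DESeq2 called 7 lower and 1 higher. Over all 14271 genes TMM called 1413 lower and 1435 higher there, against 704 and 2059 as deposited. The shares of all genes called by edgeR and DESeq2 are not given here. Together with the 6 enzymes among the 8 genes, 9 of 19 were lower in fetal liver and 6 of 19 lower and 1 higher in bone marrow. Without WT bone marrow replicate 1, the bone marrow counts of the 19 were 6 lower and 0 higher. Longer genes had higher log2 changes in fetal liver: Spearman's rho of exon length with the change was 0.284 over 14264 genes and 0.435 over the 19 enzymes, against 0.027 and 0.000 in bone marrow. These are correlations across genes, which share libraries and are not independent. The part of gene length in the fetal liver values was not tested.

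Fdps, which makes farnesyl diphosphate, had the largest fall of the 13 in fetal liver, from 825, 832 and 883 CPM in WT to 385, 469 and 248 CPM in ETV6-RUNX1 (log2 change -1.25 ± 0.27, limma adjusted p = 0.002). In bone marrow it went from 922, 584 and 405 CPM to 275.8, 423 and 333 CPM, overlapping (-0.83 ± 0.27, adjusted p = 0.0445). Replicate 1 of WT was the highest there, and without it the change was -0.52 (adjusted p = 0.155). Leaving out ETV6-RUNX1 bone marrow replicate 1, 2 or 3, WT bone marrow replicate 2, ETV6-RUNX1 fetal liver replicate 1 or any WT fetal liver replicate also ended this call, at adjusted p from 0.0514 to 0.149. Acat2, which condenses acetyl-CoA at the start of the pathway, fell by 0.99 ± 0.14 in fetal liver (adjusted p = 9.16e-05) and by 0.81 ± 0.14 in bone marrow (adjusted p = 0.00222). Mvd, the decarboxylase of mevalonate, fell by 0.76 ± 0.15 in fetal liver (adjusted p = 0.000942), and Nsdhl, a sterol demethylation enzyme, fell by 0.61 ± 0.14 in bone marrow (adjusted p = 0.00891). The exception was Dhcr7, the last reductase of the pathway, which rose in bone marrow from 36.6, 60.1 and 59.2 CPM to 80.5, 129 and 73.1 CPM (0.84 ± 0.27, adjusted p = 0.0443). The Dhcr7 call held in 10 of 23 alternatives. It was lost with TMM, median-of-ratios and quantile scaling, and without any single WT bone marrow library, ETV6-RUNX1 bone marrow replicate 1 or 2, or WT fetal liver replicate 1 or 2 (0.59 to 1.42 over all alternatives).

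SREBP control genes included 4 of 11 called higher in fetal liver (median 0.37) and 3 of 11 higher in bone marrow (median 0.28). The shares of all genes tested that were higher were 24.8% in fetal liver and 14.4% in bone marrow. Quantile normalization called 2 of the 11 lower in fetal liver and 1 lower in bone marrow, and TMM left 1 of them higher in bone marrow. Over all 14271 genes, quantile normalization called 3746 lower in fetal liver and 1324 lower in bone marrow, and TMM called 1435 higher in bone marrow. Rnf139, a ubiquitin ligase of the endoplasmic reticulum, rose by 1.02 ± 0.16 in fetal liver (limma adjusted p = 0.000169) and by 0.51 ± 0.16 in bone marrow (adjusted p = 0.0363). The bone marrow call of Rnf139 held in 6 of 23 alternatives, and leaving out any of the 6 bone marrow libraries, WT fetal liver replicate 2 or ETV6-RUNX1 fetal liver replicate 1 ended it. Srebf1, which encodes SREBP1, rose in bone marrow from 41.3, 53.9 and 60.8 CPM to 77.8, 86.5 and 78.0 CPM (0.64 ± 0.14, adjusted p = 0.00833). In fetal liver its 0.37 ± 0.14 missed the threshold (adjusted p = 0.0523). Insig2, the other sensor, differed by 0.28 ± 0.14 in bone marrow (adjusted p = 0.165) and 0.22 ± 0.14 in fetal liver (adjusted p = 0.217), which were not called.

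Scap, the escort of SREBP2, differed between sources in its response. It had 16.2, 17.0 and 18.4 CPM in WT and 29.4, 24.8 and 24.1 CPM in ETV6-RUNX1 bone marrow, a rise of 0.57 ± 0.16 (limma adjusted p = 0.0244). In fetal liver it had 22.9, 23.5 and 21.1 CPM in WT and 22.2, 16.7 and 16.2 CPM in ETV6-RUNX1 (-0.29 ± 0.16, adjusted p = 0.158). The difference of the effects was -0.86 ± 0.23 (adjusted p = 0.0303). The bone marrow rise was not called with TMM, median-of-ratios or quantile scaling, nor without WT or ETV6-RUNX1 replicate 1 or 2. Without WT bone marrow replicate 2, ETV6-RUNX1 bone marrow replicate 1, any WT fetal liver replicate, or ETV6-RUNX1 fetal liver replicate 2 or 3, the difference missed the threshold (adjusted p up to 0.0782).

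Neighbouring branches of lipid metabolism were examined in the same fit. Its shares of all genes were 24.8% higher and 18.3% lower in fetal liver, and 14.4% higher and 4.93% lower in bone marrow. Of 7 genes of lipoprotein uptake and sterol movement, 3 were lower and 1 higher in fetal liver and 1 lower in bone marrow, where 2 were lower without WT replicate 1. TMM scaling and quantile normalization called 0 of the 7 higher in fetal liver, and median-of-ratios scaling called 1. Tmem97, an SREBP2 target that binds NPC1, fell by 1.57 ± 0.17 in fetal liver (limma adjusted p = 7.23e-06) and by 0.84 ± 0.17 in bone marrow (adjusted p = 0.00478). Of 12 fatty acid synthesis genes, 2 were lower and 1 higher in fetal liver and 1 lower in bone marrow. Elovl6, a fatty acid elongase, fell by 1.00 ± 0.13 in fetal liver (adjusted p = 3.08e-05), whereas Me1, malic enzyme, rose by 1.37 ± 0.18 there (adjusted p = 4.26e-05). Of 13 genes of isoprenoid branches, 3 were lower in fetal liver and 1, Fnta, higher in bone marrow. The lower shares of the isoprenoid and fatty acid genes in fetal liver were near that of all genes. The Fnta rise of 0.59 ± 0.18 (adjusted p = 0.0331) held in 12 of 23 alternatives. It was lost without WT bone marrow replicate 1 or 3 or ETV6-RUNX1 bone marrow replicate 1 or 2, and with TMM scaling, which called 2 of the 13 lower in bone marrow. Over all 14271 genes TMM called 1413 lower there.

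Sterol efflux and LXR genes, which respond to oxysterols, had 4 of 10 tested called higher in fetal liver (median 0.50). In bone marrow 1 of 10 was higher (Nr1h2, 0.89 ± 0.16, limma adjusted p = 0.00234). Beside these stand 24.8% of all genes tested in fetal liver and 14.4% in bone marrow. Abca1, the cholesterol exporter, rose in fetal liver from 1.86, 1.66 and 0.682 CPM to 8.47, 7.40 and 10.6 CPM (2.06 ± 0.33, adjusted p = 0.000195). Ch25h, the interferon-inducible enzyme that makes 25-hydroxycholesterol, was not tested: 8 libraries held 0 reads and the highest held 6.

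Interferon and cell division genes also differed between the genotypes. Of all genes tested, limma called 24.8% higher and 18.3% lower in fetal liver, and 14.4% higher and 4.93% lower in bone marrow. All 15 interferon-induced genes were higher in ETV6-RUNX1 cells in both sources, with a median log2 change of 5.87 in fetal liver and 2.14 in bone marrow. Their summed level was 298.5 to 309 CPM in WT and 6379 to 10440 CPM in ETV6-RUNX1 fetal liver, and 483 to 802 CPM and 1651 to 3897 CPM in bone marrow. Of 14 cell division genes, 11 were lower in fetal liver (median -0.68) and 7 in bone marrow (median -0.48). Their sum was 3380 to 4061 CPM in WT and 2023 to 2597 CPM in ETV6-RUNX1 fetal liver, and 3843 to 5035 CPM and 2841 to 3694 CPM in bone marrow. The part of interferon or of cell division in the values of the 8 genes was not tested.

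Markers of other cells also differed between the groups. The 5 megakaryocyte markers summed to 2882 to 4339 CPM in WT and 6636 to 7005 CPM in ETV6-RUNX1 fetal liver, and to 1157 to 1607 CPM and 319.7 to 1888 CPM in bone marrow. In fetal liver Pf4, Itga2b, Gp1bb and Ppbp had 1.948, 2.035, 2.887 and 2.789 times the WT mean, whereas Gp9 had 0.55 times. The 7 granulocyte and monocyte markers summed to 220 to 299 CPM in WT and 48.4 to 60.2 CPM in ETV6-RUNX1 fetal liver, with 1 marker at 0 in all libraries of the latter, and to 153 to 260.5 CPM and 102 to 128.5 CPM in bone marrow. Mpo and Prtn3 had 0.15 and 0.16 times the WT mean in fetal liver. Not all 7 fell there: Csf1r, at most 13.6 CPM in any library, had 12.2 times the WT mean. The 6 macrophage markers summed to 40.6 to 48.7 CPM and 102 to 113 CPM in fetal liver and to 35.5 to 55.8 CPM and 83.5 to 105 CPM in bone marrow, with 1 to 3 markers at 0 in a group. Nearly all of that sum was Cd68, at 33.9 to 109 CPM over the 12 libraries, whereas the more specific Adgre1 and Mrc1 reached at most 1.56 and 2.07 CPM. The 5 erythroid markers summed to 673 to 935 CPM in WT and 1302 to 2044 CPM in ETV6-RUNX1 fetal liver, and to 213 to 470.1 CPM and 377 to 582 CPM in bone marrow. Most of that sum was the globin gene Hbb-bt (196 to 1960.5 CPM), whereas Klf1, the erythroid transcription factor, reached at most 1.46 CPM and in fetal liver had 0.27 times the WT mean. The 5 endothelial markers, some of which blood stem cells also express, summed to 102 to 141 CPM in WT and 235 to 316.5 CPM in ETV6-RUNX1 fetal liver, without overlap, and to 101 to 159 CPM and 135 to 162 CPM in bone marrow. In fetal liver Pecam1, Tek and Cdh5 had 2.02, 4.32 and 2.44 times the WT mean, whereas Emcn and Kdr had 0.69 and 0.93 times. The 5 stromal markers summed to 4.42 to 9.97 CPM and 1.30 to 2.49 CPM in fetal liver, without overlap, and to 9.64 to 13.0 CPM and 9.84 to 11.3 CPM in bone marrow. Pdgfrb and Col1a2 had 0.043 and 0.80 times the WT mean in fetal liver, whereas Col1a1, at most 0.643 CPM, had 1.51 times. The 5 B cell markers, mainly Cd79b, summed to 50.8 to 53.5 CPM and 55.3 to 81.7 CPM in fetal liver, without overlap, and overlapped in bone marrow. The sums of T and NK cell, hepatocyte and mast cell markers overlapped between genotypes in both sources, at up to 26.95, 37.9 and 13.8 CPM. Single markers still differed in fetal liver. Hdc, at most 8.37 CPM in any library, had 21.99 times the WT mean. Cpa3, Ms4a2 and Apoa1, at most 9.98, 0.797 and 2.08 CPM, had 0.51, 0.23 and 0.15 times. The HSC markers themselves, 9 in number, summed to 1840 to 2281 CPM in WT and 3250 to 3929 CPM in ETV6-RUNX1 fetal liver, without overlap, and to 1910 to 3122 CPM and 2580 to 3235 CPM in bone marrow. Processed pseudogenes took 1.72% to 2.39% in WT and 2.29% to 2.74% in ETV6-RUNX1 bone marrow, and 1.77% to 2.53% and 1.33% to 2.06% in fetal liver, as shares of the reads. With that share as a covariate, Lss and Srebf2 were called in both sources and Fdft1 in bone marrow, and Idi1 in bone marrow (-0.39, limma adjusted p = 0.118) and Fdft1 in fetal liver (-0.25, adjusted p = 0.216) were not. The part of these cell types in the values of the 8 genes was not tested.

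**Figure D4:**
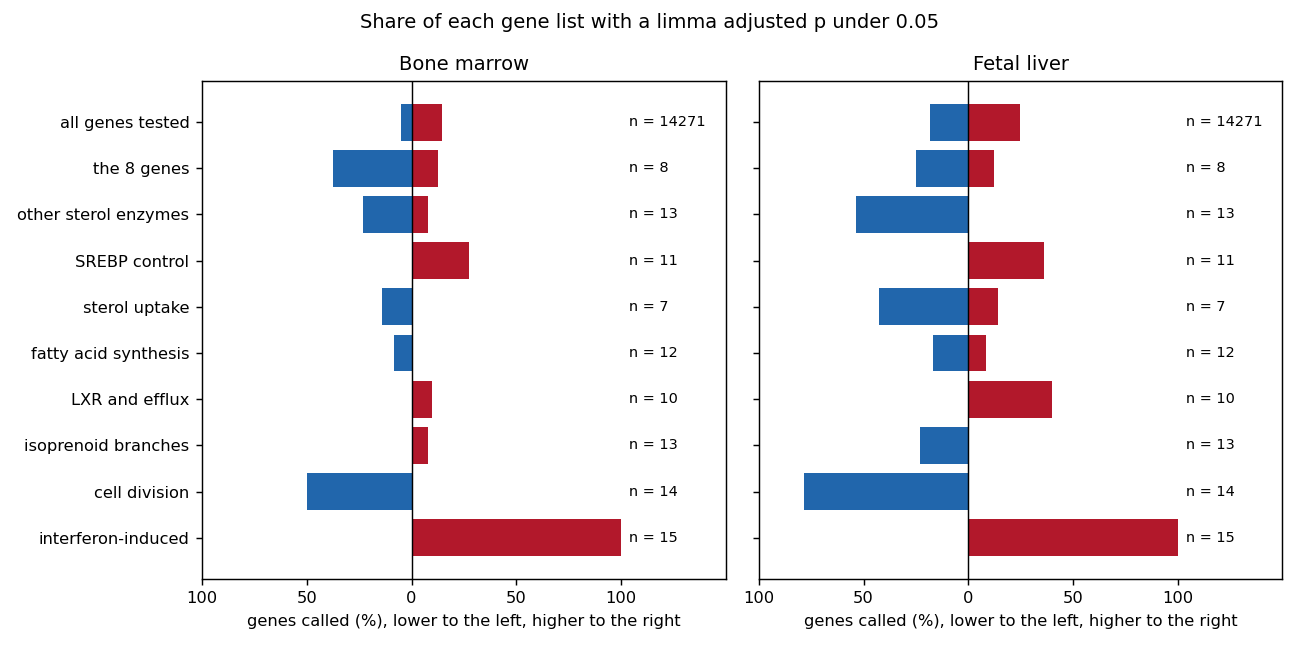
Share of each gene list (percent, lower to the left in blue, higher to the right in red) with a limma adjusted p under 0.05 for ETV6-RUNX1 against WT, beside the share of all 14271 genes tested. The lower share of the 8 genes in bone marrow (3 of 8) stands beside 4.93% of all genes, and that in fetal liver (2 of 8) beside 18.3%.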

How the data were processed

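The authors deposited one table of CPM, with a column for each of 12 libraries. Per the labels' protocols, paired-end reads came from total RNA libraries made with a stranded low-input kit. The submitters' processing notes name STAR 2.5.1a, featureCounts 1.4.6-p5, Salmon 0.8.2, edgeR, limma and the build GRCm38, without their roles. All values were whole multiples of a step (tolerance 0.01 reads), the smallest value above 0 of the library. With that step taken as 1 read, whole reads were recovered for 100% of values. A factor per library would leave such multiples too. The values kept summed to 99.84% to 99.87% of 1000000 in every library, so no scaling beyond the library total was visible. The table has 40757 rows, and the 276 with an ID already listed were dropped. Positions, exon lengths and overlaps came from GENCODE M21 (GRCm38), which held 99.4% of the IDs, and promoters from RefSeq.

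log2(CPM + 1) values were fitted with limma 3.58.1 in R 4.3.3 (eBayes with trend, not robust, 4 group coefficients, 8 residual degrees of freedom, no covariate). Tests were two-sided, with Benjamini-Hochberg adjustment over the 14271 genes and a threshold of 0.05. A fold change on this scale understates the change of low genes. The code was tested on simulated data. edgeR 4.0.16 (quasi-likelihood) and DESeq2 1.42.0 on the recovered reads, scalings, filters, a pseudocount of 0.1, the replicate number as a block, only the groups compared and leaving out each library were alternatives. The 8 genes and the lists were chosen with earlier results of these data known. Besides the 8 genes, the text names Scap, Insig2, Srebf1, Ch25h and Abca1, from the 3 called genes of smallest p per list and source, and the 6 genes most like the 8. Fdps in bone marrow, Ctsb and the genes of the fusion fall outside this rule and were added after their values were seen. Some genes of the lists are not reported here and were left out of the list counts.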

Additional observations from a re-analysis of the deposited data

Results flagged for a closer look

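The effect of ETV6-RUNX1 on Scap, the escort of SREBP2, differed between fetal liver and bone marrow in limma's test of the difference (fetal liver minus bone marrow, -0.86 on the log2 scale, SE 0.23, adjusted p = 0.0303, 3 libraries per group). It was higher in 3 of 3 ETV6-RUNX1 bone marrow libraries than in any WT one, and in fetal liver 2 of 3 ETV6-RUNX1 libraries were below all WT ones. The call held in 14 of 22 alternatives, with adjusted p from 0.01 to 0.0782.

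The effect on Abca1, the cholesterol exporter, also differed between the sources, by 2.30 (SE 0.46, adjusted p = 0.00703), with a rise of 2.06 in fetal liver and a difference of -0.24 in bone marrow. It was higher in 3 of 3 ETV6-RUNX1 fetal liver libraries than in any WT one. The call held in 20 of 21 alternatives, with adjusted p from 5.12e-05 to 0.138, and was lost with the processed pseudogene share as a covariate.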

How the results depend on the processing

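Of 2032 alternative values for 89 gene results, 1845 kept direction and side of the threshold, 108 lost and 23 gained a call, and 56 changed sign. Some settings hold fewer libraries, and the one without a filter tests more genes. The cause of these changes was not tested. Of the 8 genes, no filter on low values left 1 called in fetal liver, 2 in bone marrow and 0 between WT sources. Only the groups compared left 1 called in bone marrow and 1 between ETV6-RUNX1 sources, as did quantile normalization (1) and the pseudogene share as a covariate (1) for the latter. That covariate was chosen after seeing the data. Over all genes, 1601 were called in bone marrow with only the groups compared, and for the difference of effects 767 without a filter and 547 with the covariate. Fitting only the groups compared does not apply to the difference of effects. The replicate block called 2 of the 8 in fetal liver, 3 in bone marrow and 0 between WT sources. The sources used here do not say whether replicate numbers pair samples. The deviations of same-numbered libraries correlated at -0.44 to 0.39, over 0.1 in 7 of 18 pairs. Those of libraries with different numbers reached -0.495 and 0.656. With 3 libraries per group, each set against its own group mean, this check cannot settle whether samples were paired.

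With the covariate, uncalled values turned sign as follows. In fetal liver Hmgcs1 became -0.061, and in bone marrow Abca1 became 0.049. For the difference of effects Sqle became -0.30, Cyp51 -0.13, Lss -0.28, Insig1 -0.34 and Srebf2 -0.31. Between ETV6-RUNX1 sources Hmgcs1 became -0.17, Sqle -0.25, Idi1 -0.095, Lss -0.37 and Srebf2 -0.33, and between WT sources Sqle 0.053. With TMM, median-of-ratios scaling, edgeR and DESeq2, in that order, Sqle between WT sources became 0.10, 0.093, 0.096 and 0.089, Fdft1 between WT sources 0.070, 0.062, 0.049 and 0.0405, and Cyp51 between ETV6-RUNX1 sources 0.13, 0.14, 0.15 and 0.15. The Insig2 difference of effects became 0.0027 with median-of-ratios scaling and 0.0034 with DESeq2, and Sqle between ETV6-RUNX1 sources became -0.026 with quantile normalization.

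Leaving out each library in turn called 1 to 3 of the 8 in fetal liver, 1 to 4 in bone marrow, 0 to 1 for the difference of effects, 0 to 2 between WT sources and 0 to 1 between ETV6-RUNX1 sources. Over all genes it called 1520 to 2924 in bone marrow, 731 to 2332 for the difference and 868 to 2781 between WT sources. In the latter 2 the highest counts came without WT bone marrow replicate 1 and the lowest without WT bone marrow replicate 2. Ranges that crossed 0 were, in fetal liver, -0.0043 to 0.34 for Hmgcs1 and -0.25 to 0.0035 for Cyp51. In bone marrow they were -0.065 to 0.47 for Insig1 and -0.55 to 0.10 for Abca1. For the difference of effects they were -0.079 to 0.20 for Sqle, -0.0087 to 0.20 for Fdft1, -0.055 to 0.41 for Lss, -0.012 to 0.52 for Insig1 and -0.16 to 0.01 for Insig2. Between WT sources they were -0.17 to 0.11 for Sqle, -0.12 to 0.094 for Fdft1 and -0.27 to 0.017 for Srebf2. Between ETV6-RUNX1 sources they were -0.066 to 0.10 for Sqle, -0.0039 to 0.17 for Fdft1, -0.16 to 0.091 for Cyp51 and -0.23 to 0.24 for Lss. At 32.3 to 64.5 M reads the depth does not limit the 8 genes, whose lowest value was 74.3 CPM. The value given for a count of 3 reads covers counting error only, since reads carry no molecular identifiers.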
